A study of Mus musculus with 46 samples.

Results

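Transcript levels of 10 genes of fibroblast growth factor (FGF) signalling were followed across all 46 tumours of a mouse synovial sarcoma series. They are the receptor genes Fgfr1, Fgfr2, Fgfr3 and Fgfr4, the ligand genes Fgf2 and Fgf18, and the feedback genes Spry1, Spry2, Spry4 and Dusp6. They were chosen by name and role, with earlier results of these data known, out of 56854 genes present in both deposited count tables. All 10 passed the filter on low counts in every fit. The tumours fell into 6 genotype groups. All carried, at Rosa26, a human fusion gene kept silent by a floxed stop until Cre protein (TATCre) was injected into a limb, SS18::SSX2 in hSS2 mice and SS18::SSX1 in hSS1 mice. The hSS2 groups held 13 control tumours and 8 tumours each of Pbrm1-fl, Arid1a-fl and Arid1b-fl, and the hSS1 groups held 5 control and 4 Pbrm1-fl tumours. The fl groups were also homozygous for floxed alleles, on which the same Cre acts, of Pbrm1, a subunit of the PBAF chromatin remodelling complex, or of Arid1a or Arid1b, alternative subunits of the canonical BAF complex. The control tumours carried the fusion and received TATCre but had no floxed subunit gene. The study used littermates as controls, and the labels do not say which mice shared a litter. Cre recombines every cell type it enters, the mice were of mixed strain and both sexes, and each library came from 1 piece of frozen tumour in which normal limb cells can remain. Titles number the mice, in ranges under 1000, 1000 to under 2000, and 2000 and over, which may or may not follow the time of the work. All hSS2 Pbrm1-fl mice fell in the highest range, all Arid1a-fl in the lowest and all Arid1b-fl in the middle one, and the hSS2 control tumours in all 3 (5, 4 and 4 tumours), so a second set of fits compared each fl group with own-range controls, the control tumours numbered in its range.

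FGF ligands bind receptor tyrosine kinases together with heparan sulphate, and the activated receptors drive the RAS-ERK cascade through docking proteins such as FRS2. ERK signalling induces its own inhibitors: Sprouty proteins act upstream on the cascade, and DUSP6 dephosphorylates ERK itself. Transcripts of Dusp6, the Sprouty genes and the ETS factors Etv4 and Etv5 are therefore widely used as readouts of the pathway. FGF receptor signalling has been studied as a dependency of synovial sarcoma cells, and in muscle FGFR4 marks the myogenic lineage.

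Library totals ranged from 10.1 M to 21.3 M counts. Over the 10 genes the raw count in a library reached from 0 (Fgfr4) to 44873 (Fgfr1). Levels below are CPM, that is counts scaled to a common library size, or CPM per kilobase of exon where genes are compared with each other. Each value is for a whole piece, so fewer cells of a type and less RNA per cell cannot be told apart. The fitted difference of the targeted gene was negative in each of the 4 fl groups and passed the adjusted threshold in 2. Those were Pbrm1 in hSS2 Pbrm1-fl (log2 fold change -1.27 ± 0.09 SE, edgeR adjusted p = 4.2e-12) and Arid1a in Arid1a-fl (-0.95 ± 0.13, edgeR adjusted p = 7.0e-05). Arid1b in Arid1b-fl (-0.80 ± 0.19, edgeR unadjusted p = 0.00012, adjusted p = 0.14) and Pbrm1 in hSS1 Pbrm1-fl (-0.75 ± 0.24, edgeR unadjusted p = 0.013, adjusted p = 0.19) did not pass. The Arid1b difference passed without Arid1b-fl replicate 2 (-0.92, edgeR adjusted p = 0.046) or 4 (-0.96, edgeR adjusted p = 0.015). Arid1b spanned 110 to 352 CPM in Arid1b-fl and 227 to 690 in hSS2 control, so those groups overlapped. An hSS2 control library, replicate 9, had Arid1a at 239 CPM, inside the 230 to 278 CPM of the Arid1a-fl group, and the Fgfr1 call in Pbrm1-fl and the own-range Spry1 call in Arid1a-fl, both of which use it, are also given without it. The 8 synovial sarcoma markers summed to 569 CPM or more in every tumour, and the 10 skeletal muscle markers to between 5.56 and 42001 CPM.

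Upstream sequences are shown for Dusp6, Spry2 and Fgf2, because Dusp6 and Spry2 rose and fell together from tumour to tumour and Fgf2 ran against Spry2 by the values given further on. RefSeq promoter windows (GRCm38.p6) matched 8 of the 10 genes, all but Fgfr1 and Spry4. The 250 bases before the RefSeq transcript start are printed 5′ to 3′ on the gene's strand. For Fgf2 that start lies inside the longer M21 gene model, so its window is upstream of the RefSeq start only. Capitals mark the ETS core letters GGAA or their reverse complement TTCC, searched on both strands.
Dusp6, chr10:99262981-99263230, plus strand: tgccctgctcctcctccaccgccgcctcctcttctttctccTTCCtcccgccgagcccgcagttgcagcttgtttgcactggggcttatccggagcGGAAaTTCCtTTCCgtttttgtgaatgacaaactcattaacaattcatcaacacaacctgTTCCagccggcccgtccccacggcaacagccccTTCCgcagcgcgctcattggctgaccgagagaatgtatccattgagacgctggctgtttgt
Spry2, chr14:105896820-105897069, minus strand: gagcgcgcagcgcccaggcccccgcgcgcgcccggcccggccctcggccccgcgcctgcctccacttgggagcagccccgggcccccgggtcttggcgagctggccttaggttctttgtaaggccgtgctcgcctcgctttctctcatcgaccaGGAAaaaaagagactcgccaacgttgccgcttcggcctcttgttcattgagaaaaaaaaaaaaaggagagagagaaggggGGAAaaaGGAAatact
Fgf2, chr3:37348403-37348652, plus strand: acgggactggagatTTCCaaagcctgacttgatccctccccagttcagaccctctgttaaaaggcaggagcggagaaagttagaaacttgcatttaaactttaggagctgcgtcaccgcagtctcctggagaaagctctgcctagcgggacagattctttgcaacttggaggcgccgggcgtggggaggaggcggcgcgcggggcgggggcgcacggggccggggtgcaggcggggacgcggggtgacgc
The core occurred 6 times before Dusp6, 3 times before Spry2 and 1 time before Fgf2. Of 32851 mouse windows of the same length, 93.4% held at least 1 core and the median number was 3, so its presence is ordinary. The longer ETS letters CCGGAAGT and the cyclic AMP response letters TGACGTCA, both strands searched, occurred in none of these 3 windows and in 2.88% and 1.55% of all windows.

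Per kilobase, Fgfr1 was the leading receptor transcript. In the 13 hSS2 control tumours the order was Fgfr1 at 68.7 ± 36.9 CPM per kb (SD, n = 13), Dusp6 at 52 ± 26.1, Spry1 at 25.2 ± 13.8, Fgfr2 at 17.6 ± 5.69, Spry2 at 15.4 ± 5.29, Fgfr3 at 12.7 ± 8.08, Fgf18 at 10.6 ± 4.95 and Spry4 at 9.42 ± 3.04. Fgf2 followed at 1.44 ± 1.21 and Fgfr4 at 0.278 ± 0.101 CPM per kb. Only 1 step in that order left a gap: the lowest Spry4 library (5.37) lay above the highest Fgf2 library (4.09), and every other pair of neighbours overlapped. Fgfr1 was the highest of the 4 receptors in 43 of the 46 libraries. The exceptions were Arid1b-fl replicate 6, Arid1a-fl replicate 8 and hSS1 Pbrm1-fl replicate 3, where Fgfr2 was higher.

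Fgfr1 took 66.4 ± 14.5% (SD, n = 13) of the summed FGFR level per kb in hSS2 control tumours, 73.4 ± 17.7% in Pbrm1-fl, 54.4 ± 8.06% in Arid1a-fl and 68.1 ± 14.4% in Arid1b-fl (n = 8 each). Its share was 45.5 ± 5.86% in hSS1 control (n = 5) and 44.7 ± 7.75% in hSS1 Pbrm1-fl tumours (n = 4). The hSS1 and hSS2 tables were made separately, so the backgrounds are set side by side without a test. Fgfr2 supplied 19.7 ± 8.58% and Fgfr3 13.6 ± 8.44% in hSS2 control, and Fgfr4 0.316 ± 0.176%. The M21 model of Fgfr2 on chromosome 7 spans 130162451 to 133123350 and overlaps 67 other annotated genes, so its length and level are the least certain of the receptors.

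**Figure D1:**
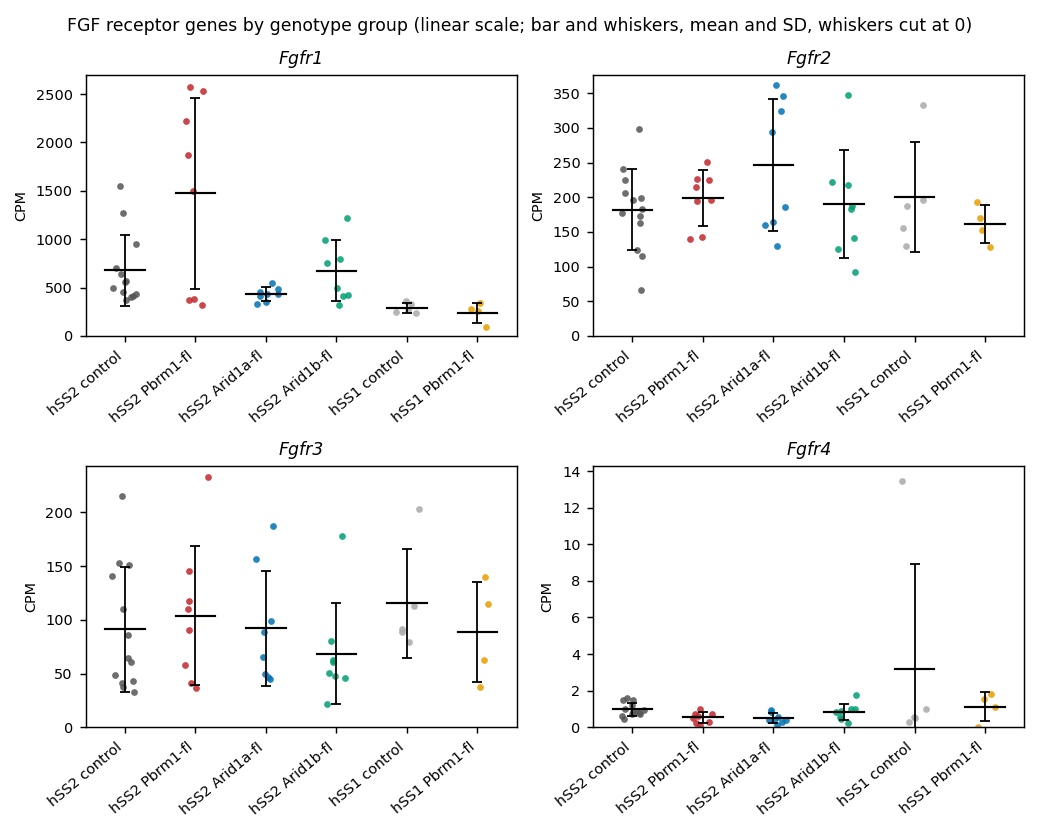
CPM of the 4 receptor genes in each tumour (points) by genotype group, on linear axes from 0; the bar is the group mean and the whiskers 1 SD, cut at 0. In hSS2 Pbrm1-fl tumours Fgfr1 lay at 324 to 382 CPM in 3 tumours and at 1501 to 2578 CPM in 5, and Fgfr4 stayed below 2 CPM except in 1 hSS1 control tumour at 13.5 CPM.

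Fgfr1 was the one member past the threshold in hSS2 Pbrm1-fl against hSS2 control tumours. Fgfr1 (chr8:25513654-25575718, plus strand, GRCm38) encodes the receptor most widely expressed in mesenchymal tissue. The 13 control tumours had a lowest level of 368, a median of 561 and a highest of 1549 CPM. The 8 Pbrm1-fl tumours had 2529, 2578, 382, 2226, 1501, 1875, 371 and 324 CPM in replicates 1 to 8. Of these tumours 4 lay above every control tumour, 3 below the control median, and 1 below every control tumour. The fitted difference was 1.13 ± 0.33 log2 units (SE, 2.18-fold, edgeR adjusted p = 0.031). In this comparison 7.35% of the 20083 genes tested passed the threshold, against 1 of the 10 members.

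The Fgfr1 call was narrow. With each of the 21 libraries left out in turn, the log2 difference stayed between 0.95 and 1.29. The edgeR adjusted p rose above 0.05, to at most 0.085, in 7 of these fits: without control replicate 2, 9 or 11, or without Pbrm1-fl replicate 1, 2, 4 or 6. Without control replicate 9 it was 1.05 with an edgeR adjusted p of 0.055. Against own-range controls (4 tumours) the difference was 1.15 ± 0.48 with an edgeR adjusted p of 0.23, and no member passed, with 2.38% of genes called. It passed by DESeq2 (1.11 ± 0.34, adjusted p = 0.015).

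Markers of other cell types varied alongside Fgfr1. In Pbrm1-fl replicates 1 to 8 the 9 macrophage markers summed to 986, 654, 135, 319, 372, 616, 44.2 and 69 CPM, and in control tumours to between 84.6 and 716 CPM. The 7 T cell markers summed to 54.8, 18.4, 4.99, 4.91, 10.8, 19.4, 1.47 and 0.919 CPM in the same replicates, and to between 1.01 and 37.6 CPM in control. All 9 macrophage markers were above 0 in every hSS2 tumour, while 5 of the 7 T cell markers, Cd3d and Cd3e among them, were at 0 in some. The macrophage sum ran from 78.1 to 713 CPM in Arid1a-fl and from 66.7 to 936 CPM in Arid1b-fl. Across the 37 hSS2 tumours Fgfr1 rose with the macrophage score (r = 0.59, Spearman rho = 0.58, permutation p = 0.00018 and 0.00026, adjusted over 100 pairs 0.00138 and 0.0018). The same relation had r = 0.49 in the 13 control tumours and r = 0.18, 0.39 and 0.83 within the mouse number ranges under 1000, 1000 to under 2000, and 2000 and over. The adipocyte markers summed to 227, 39.6, 1.54, 11.5, 9.06, 54.4, 0.184 and 0.153 CPM in Pbrm1-fl replicates 1 to 8, and to between 0.415 and 322 CPM in control. Fgfr1 also rose with the adipocyte score (r = 0.54, rho = 0.47, permutation p = 0.00067 and 0.00371, adjusted 0.0035 and 0.0109, r = 0.47 without the 2 farthest tumours), with r = 0.20, 0.48 and 0.76 within the ranges. The skeletal muscle markers summed to 13448, 6204, 21.9, 336, 7.13, 12434, 21.4 and 9.90 CPM in the same replicates, and to between 12.5 and 42001 CPM in control. Over the 37 hSS2 tumours Fgfr1 did not pass with the skeletal muscle score. It did pass with the T cell, Schwann cell and proliferation scores. With the T cell score it had r = -0.59 and rho = 0.12 over the 9 hSS1 tumours (exact permutation p = 0.108 and 0.776, adjusted over 100 pairs 0.768 and 0.92). In the 9 hSS1 tumours Fgfr1 had r = -0.18 with the macrophage score (rho = -0.23) and 0.39 with the adipocyte score (rho = 0.27), and neither passed (exact permutation p of r = 0.724 and 0.181, of rho = 0.552 and 0.493, adjusted over 100 pairs 0.995 and 0.768 for r and 0.92 for each rho). The largest r of Fgfr1 in hSS1 was 0.86 (rho = 0.80), with pericyte and smooth muscle, a list it did not pass with in hSS2. That relation did not pass in hSS1 either (exact permutation p adjusted 0.534 for r and 0.822 for rho). What part these cells have in the Fgfr1 level was not tested.

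The genes beside Fgfr1 were read in the same fit. Within 1 Mb of the gene 32 others were tested, and their median log2 difference in Pbrm1-fl against control was -0.03. Of these 2 passed the threshold, beside 7.35% of all genes. In Pbrm1-fl replicate 2, the tumour with the highest Fgfr1 level of all 46, Fgfr1 was 1.72 times the median of the other Pbrm1-fl tumours. The neighbours' median ratio was 1.08, and some exceeded that of Fgfr1, the highest being D830025C05Rik (2.68) and Htra4 (2.66). Other tumours with high Fgfr1 are part of the reference median, so these ratios cannot show a difference that the high tumours share.

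**Figure D2:**
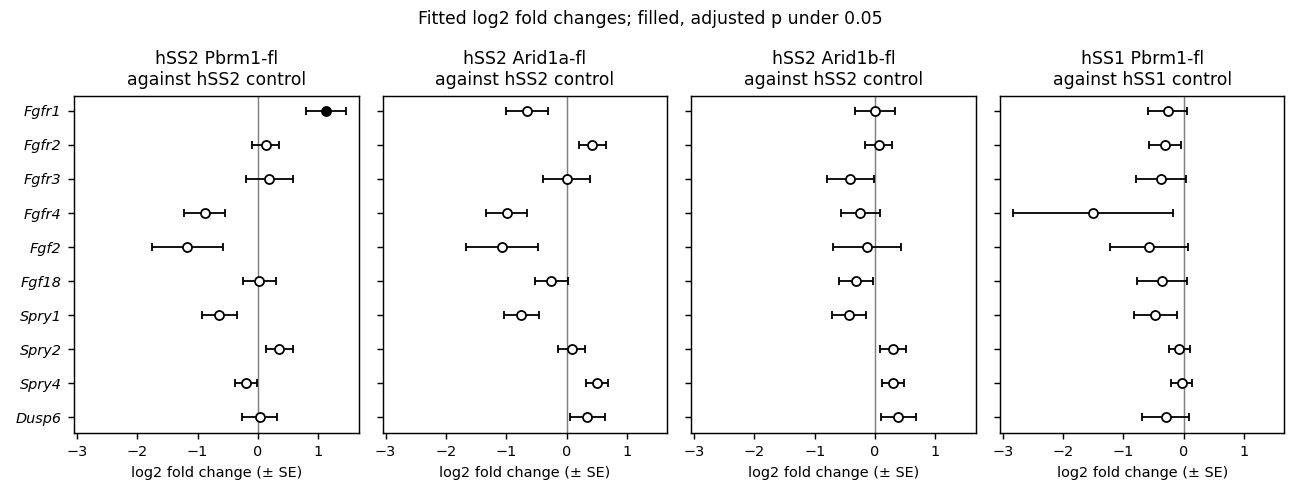
Fitted log2 fold changes with SE for the 10 genes in 4 comparisons of an fl group with its control; filled points have an edgeR adjusted p under 0.05. The one filled point is Fgfr1 in hSS2 Pbrm1-fl, at 1.13 ± 0.33, and the widest error is that of Fgfr4 in hSS1, at -1.51 ± 1.32.

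In the other fl groups no member passed the threshold by edgeR against all control tumours of the same fusion. Background shares of genes called were 3.17% for Arid1a-fl, 0.0548% for Arid1b-fl, 0.00562% for hSS1 Pbrm1-fl and 2.86% for the interaction (the effect of Pbrm1-fl in hSS1 less its effect in hSS2). At an unadjusted p under 0.05 the members numbered 3 in Arid1a-fl (Fgfr4, Spry4 and Spry1), 0 in Arid1b-fl, 0 in hSS1 Pbrm1-fl and 1 in the interaction (Fgfr1). Of all genes tested, 4621 of 20083, 1250 of 20083, 3059 of 17786 and 4111 of 21725 had such a p in the same order. DESeq2 called 1 member in Arid1a-fl (Fgfr4) and 0 in the other 3, where 8.44%, 0.0747%, 6.72% and 5.51% of all genes were called in the same order; in hSS1 it gave no p for Fgfr4. Against own-range controls edgeR called 1 member in Arid1a-fl, Spry1, beside 7.0% of all genes, as given below. The 3 hSS2 comparisons share the 13 control tumours, so their values are not independent.

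In Arid1a-fl tumours Fgfr1 did not pass. All 8 lay below the control median, with a lowest level of 330, a median of 433 and a highest of 552 CPM, and the log2 difference was -0.65 ± 0.34 (edgeR adjusted p = 0.25). Arid1b-fl tumours ran from 318 through a median of 623 to 1224 CPM, with a difference of 0.00 ± 0.34 (edgeR adjusted p = 1.0). In hSS1 the control tumours had 267, 358, 249, 332 and 237 CPM and the Pbrm1-fl tumours 337, 275, 92.4 and 256 CPM. Those groups overlapped, with a log2 difference of -0.26 ± 0.33 (edgeR adjusted p = 0.71). The interaction for Fgfr1 was -1.39 ± 0.59, with an edgeR adjusted p of 0.18 and a DESeq2 adjusted p of 0.13, so a different Pbrm1-fl effect between the backgrounds was not shown. Against own-range controls it was -1.35 ± 0.70 (edgeR adjusted p = 0.47), and no member passed, with 0.0414% of genes called. The backgrounds also differed in the fitted loss of Pbrm1 itself, -1.27 log2 units in hSS2 and -0.75 in hSS1. For hSS1 the paper proposes that these tumours arose from cells in which not every floxed Pbrm1 allele had recombined.

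Set directly against each other, hSS2 Pbrm1-fl and Arid1a-fl tumours differed in 2 of the 10 members, where 12.3% of all genes tested were called. DESeq2 called both as well, with 16.1% of genes called. Fgfr1 was higher in Pbrm1-fl by 1.78 ± 0.39 log2 units (edgeR adjusted p = 0.0025). Of 8 Pbrm1-fl tumours, 5 stood above every Arid1a-fl tumour and 1 stood below all of them. Spry4, a Sprouty inhibitor of the RAS-ERK cascade, was lower in Pbrm1-fl (-0.71 ± 0.21, edgeR adjusted p = 0.020). Its levels were 28.5 to 60.5 CPM with a median of 36.3 in Pbrm1-fl and 44.4 to 93.3 CPM with a median of 58.8 in Arid1a-fl, and 6 of 8 Pbrm1-fl tumours lay below every Arid1a-fl tumour. These groups share no mouse number range. With each taken against control tumours of its own range the differences were 1.35 ± 0.63 and -0.68 ± 0.35, and neither passed (edgeR adjusted p = 0.22 and 0.28, with 2.17% of genes called).

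Pbrm1-fl against Arid1b-fl gave no member by edgeR, with 4.37% of genes called, 2 members at an unadjusted p under 0.05 (Fgfr1 and Spry4, beside 3599 of 20083 genes) and 1 by DESeq2 (Fgfr1), where 7.1% of genes were called. Fgfr1 was at 1.13 ± 0.38 there (edgeR adjusted p = 0.083). Arid1a-fl against Arid1b-fl gave no member by either tool and none at an unadjusted p under 0.05 (beside 2517 of 20083 genes), with 0.0996% of genes called by edgeR and 1.07% by DESeq2.

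Fgfr2, which in mesenchyme and epithelium binds different FGFs by splice form, ranged from 66.6 through a median of 183 to 299 CPM in hSS2 control. Its highest group was Arid1a-fl, at 130 to 362 CPM with a median of 240 (log2 difference 0.43 ± 0.22, edgeR adjusted p = 0.24). Fgfr3, best known as a brake on cartilage growth, varied most among the higher receptors, from 32.5 to 215 CPM in hSS2 control with a median of 64.8. Its fl groups overlapped the controls throughout, with differences of 0.19 ± 0.38, 0.00 ± 0.39 and -0.41 ± 0.39 in Pbrm1-fl, Arid1a-fl and Arid1b-fl.

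Fgfr4 was close to the floor. In the 37 hSS2 tumours it ran from 0.122 to 1.77 CPM, with group medians of 0.890 in control, 0.580 in Pbrm1-fl, 0.401 in Arid1a-fl and 0.839 in Arid1b-fl. The differences were -0.88 ± 0.34 in Pbrm1-fl (edgeR adjusted p = 0.10, DESeq2 adjusted p = 0.0499) and -0.99 ± 0.34 in Arid1a-fl (edgeR adjusted p = 0.083, DESeq2 adjusted p = 0.040). Of 8 Arid1a-fl tumours 5 lay below every control tumour. In hSS1 control 4 tumours had 0.503, 0.566, 1.02 and 0.276 CPM and replicate 2 had 13.5 CPM; the hSS1 Pbrm1-fl tumours had 1.80, 1.54, 0 and 1.11 CPM. The 0 was a count of 0, which allows up to 0.287 CPM in that library. Replicate 2 decided the sign of the hSS1 difference, which was -1.51 ± 1.32 with it and 0.90 without it. Its muscle markers summed to 606 CPM. Those of the other 4, replicates 1, 3, 4 and 5, summed to 8.30, 487, 7.71 and 12.2 CPM, and replicate 3, at 487 CPM, had Fgfr4 at 0.566 CPM. In hSS2 tumours, where the muscle sum reached 42001 CPM, Fgfr4 was at most 1.77 CPM. Over the 37 hSS2 tumours Fgfr4 rose with the skeletal muscle score (r = 0.62, rho = 0.63, permutation p = 5e-05 and 4e-05, adjusted over 100 pairs 0.000625 and 0.000444), with r = 0.10 in the control tumours alone and r = 0.45, 0.80 and 0.60 within the 3 mouse number ranges in ascending order. With the skeletal muscle score as a covariate the hSS1 difference in Fgfr4 was positive, as given in the closing section. Beyond that covariate, what part muscle has in the Fgfr4 level was not tested.

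Of 22 FGF family genes measured, 13 averaged at least 1 CPM in hSS2 control tumours. Per kilobase Fgf11 was highest at 20.1 CPM per kb, followed by Fgf18 at 10.6, Fgf10 at 7.17, Fgf13 at 4.44, Fgf8 at 4.09 and Fgf9 at 3.76. Of these, Fgf11 and Fgf13 are intracellular FGFs that do not act through the receptors. Fgf2, the basic FGF bound in extracellular matrix, stood at 1.44 CPM per kb. Fgf18, a skeletal growth ligand (chr11:33117430-33147400, minus strand), did not pass in any group. Its levels in hSS2 control ran from 3.83 through a median of 9.63 to 23.0 CPM. The medians of Pbrm1-fl, Arid1a-fl and Arid1b-fl were 11.6, 8.80 and 10.4 CPM, with differences of 0.02 ± 0.27, -0.25 ± 0.28 and -0.31 ± 0.28.

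**Figure D3:**
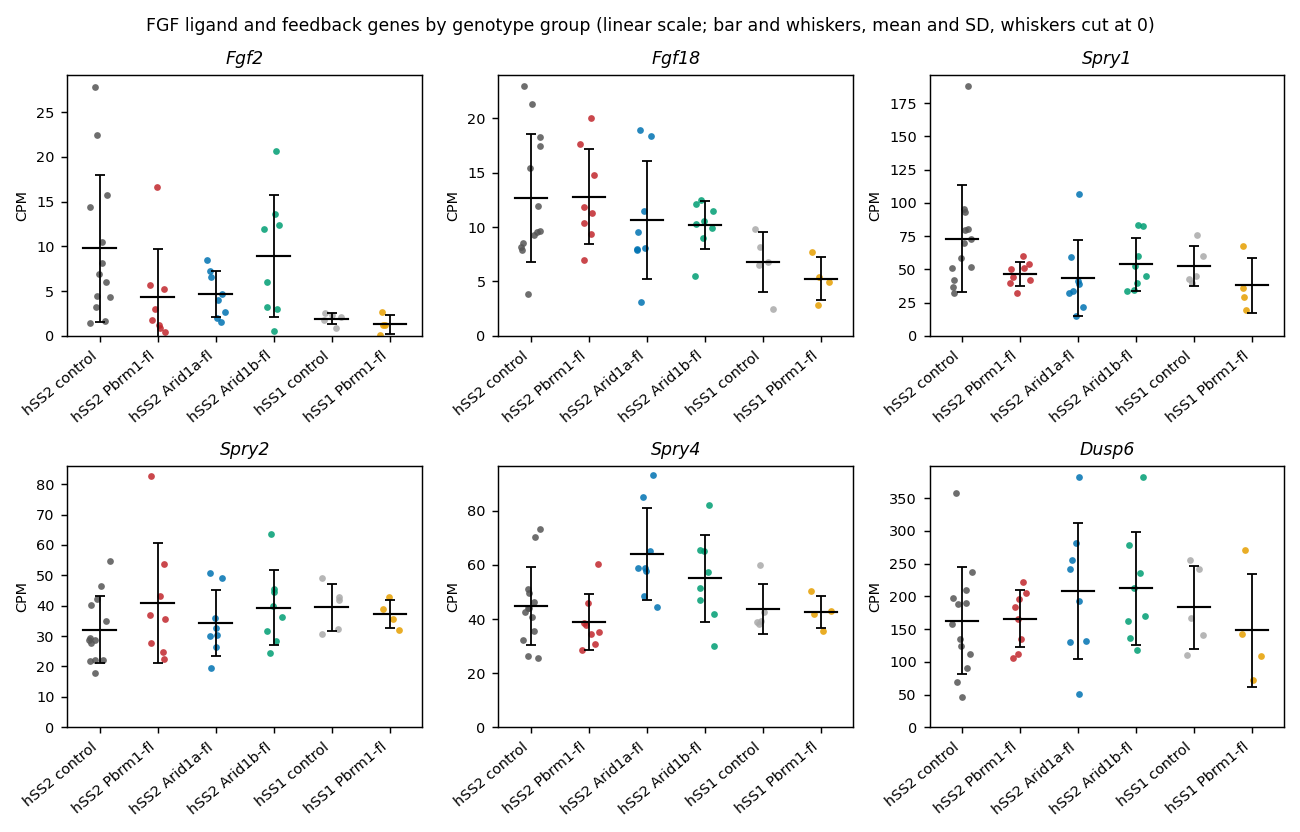
CPM of the 2 ligand and 4 feedback genes in each tumour (points) by genotype group, on linear axes from 0; the bar is the group mean and the whiskers 1 SD, cut at 0. The groups overlap in every panel, and Spry4 in Arid1a-fl runs from 44.4 to 93.3 CPM.

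Fgf2 varied widely inside the control group itself. Fgf2 (chr3:37348346-37410108, plus strand) had a lowest level of 1.48, a median of 6.92 and a highest of 27.7 CPM in hSS2 control. The Pbrm1-fl tumours had 0.459 to 16.6 CPM with a median of 2.37, and 7 of 8 were below the control median. The difference was -1.17 ± 0.60 (edgeR adjusted p = 0.24). Replicate 1 alone held the 16.6 CPM, and without it the difference was -1.90 with an edgeR adjusted p of 0.042. Arid1a-fl tumours had 1.52 to 8.45 CPM (-1.07 ± 0.59, edgeR adjusted p = 0.27) and Arid1b-fl tumours 0.564 to 20.7 CPM (-0.13 ± 0.57, edgeR adjusted p = 0.99). In hSS1 the levels were low in both groups, 0.921 to 2.58 CPM in control and 0.0956 to 2.66 in Pbrm1-fl. Fgf2 overlaps Nudt6 on the opposite strand. Nudt6 averaged 5.52 CPM in hSS2 tumours and stayed within 3.84 to 7.80 CPM; the strand setting of the counting is not given in the sources used here, so reads from the overlap cannot be told apart.

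Spry1 and Spry4 did not pass in any fl group against all control tumours. Spry1 (chr3:37639947-37644598, plus strand), like the other Sprouty genes an inhibitor induced by receptor tyrosine kinase signalling, had 32.1, 69.8 and 188 CPM as the lowest, median and highest values of hSS2 control. It had 15.3, 36.3 and 107 CPM in Arid1a-fl (-0.75 ± 0.29, edgeR adjusted p = 0.12). Without Arid1a-fl replicate 6, the tumour at 107 CPM, the difference was -1.08 with an edgeR adjusted p of 0.021, and against control tumours of its own mouse number range it was -1.11 ± 0.34 (edgeR adjusted p = 0.043, with 7.0% of genes called). With control replicate 9 also left out, an alternative chosen after seeing the data, the own-range Spry1 difference was -1.27 ± 0.35 (edgeR adjusted p = 0.030, with 6.16% of genes called). In Pbrm1-fl all 8 tumours lay below the control median, at 32.4, 47.5 and 60.3 CPM (-0.64 ± 0.29, edgeR adjusted p = 0.18). Spry4 in Arid1a-fl lay above the control median of 44.2 CPM in 8 of 8 tumours (0.51 ± 0.18, edgeR adjusted p = 0.097). It passed, at 0.59, only without control replicate 10, the highest control tumour at 73.4 CPM (edgeR adjusted p = 0.045).

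Spry2 and Dusp6 showed no difference past the threshold. Spry2 (chr14:105891947-105896819, minus strand) had 17.7, 28.6 and 54.8 CPM as lowest, median and highest values in hSS2 control. The medians of Pbrm1-fl, Arid1a-fl and Arid1b-fl were 36.4, 31.5 and 38.1 CPM. Its largest fitted difference among these was 0.35 ± 0.22 in Pbrm1-fl (edgeR adjusted p = 0.36). Dusp6 (chr10:99263231-99267489, plus strand) had 46.9, 157 and 357 CPM in hSS2 control and medians of 174, 217 and 191 CPM in the same 3 groups. Its differences were 0.03 ± 0.29, 0.34 ± 0.29 and 0.38 ± 0.29. In hSS1 the Dusp6 levels were 110 to 256 CPM in control and 72.2 to 271 CPM in Pbrm1-fl (-0.30 ± 0.40, edgeR adjusted p = 0.73).

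Some members varied together from tumour to tumour. Over the 37 hSS2 tumours 7 of the 45 pairs passed by Pearson's r on log2 CPM (permutation test with 100000 resamples, two-sided, adjusted over 45 pairs). Spry2 and Dusp6 rose together (r = 0.61, rho = 0.63, permutation p = 4e-05 and 5e-05, adjusted 0.0009 and 0.00112). Without the 2 tumours farthest from the median of the first gene r was 0.58. It was 0.51 in the control tumours alone and 0.60, 0.93 and 0.45 within the 3 mouse number ranges in ascending order. The genes whose pattern was most like that of Dusp6 among 14300 candidates were Etv5 (rho = 0.81), Dzip3 (rho = 0.80) and Ccnd1 (rho = 0.78) over 37 tumours, given as a description. Over the 9 hSS1 tumours their rho with Dusp6 was 0.63, -0.27 and 0.78. By the same ranking the closest gene was Klf15 for Spry1 (rho = 0.74), Ctc1 for Spry2 (rho = 0.83) and Scn2b for Spry4 (rho = 0.74).

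Fgf2 ran against Spry2. The pair had r = -0.69 and rho = -0.69 (permutation p = 1e-05 for each, the smallest that 100000 resamples give, adjusted 0.00045), and r = -0.62 without the 2 farthest tumours. It was -0.66 in the control tumours and -0.41, -0.76 and -0.89 within the ranges. Fgf2 was also negatively related to Fgfr3 (r = -0.59, rho = -0.61, permutation p = 0.00012 and 8e-05, adjusted 0.0018 and 0.0012, r = -0.53 without 2 tumours) and to Fgfr2 (r = -0.50, rho = -0.52, permutation p = 0.00151 and 0.00113, adjusted 0.0136 and 0.0127, r = -0.36 without 2). Fgfr4 and Spry2 had r = -0.53 and rho = -0.50 (permutation p = 0.0006 and 0.00157, adjusted 0.00675 and 0.0141, r = -0.57 without 2). Fgfr4 and Fgf2 had r = 0.47 and rho = 0.46 (permutation p = 0.00343 and 0.00413, adjusted 0.0257 and 0.031, r = 0.44 without 2). That relation did not pass once group means were removed (r = 0.36, permutation p adjusted over 45 pairs 0.143), and r was 0.04 in the 13 control tumours. Within the ranges in ascending order r was -0.50, -0.46 and -0.62 for Fgf2 with Fgfr3, -0.25, -0.60 and -0.65 for Fgf2 with Fgfr2, -0.50, -0.79 and -0.51 for Fgfr4 with Spry2, and 0.24, 0.51 and 0.55 for Fgfr4 with Fgf2. Fgf18 and Dusp6 had r = 0.44 (permutation p = 0.00677, adjusted 0.0435) but rho = 0.29 (p = 0.0871 by permutation, adjusted 0.212). That relation fell to r = 0.10 without the 2 farthest tumours and so rests on them; r was 0.69, 0.06 and 0.05 within the ranges.

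In the 9 hSS1 tumours, read after the hSS2 values were seen, none of the 45 pairs passed (exact permutation test, two-sided, adjusted over 45 pairs), 4 had an unadjusted p of r under 0.05, and 3 of the 7 pairs that passed in hSS2 had the same sign of r. Fgf2 with Spry2 had r = 0.10 and rho = 0.13 (exact permutation p = 0.83 and 0.744, adjusted 0.977 and 0.9). Fgf2 had r = 0.48 with Fgfr3 (rho = -0.18) and 0.48 with Fgfr2 (rho = 0.52), and Fgfr4 had r = 0.15 with Spry2 (rho = 0.08). Spry2 with Dusp6 had r = 0.64 and rho = 0.67 (exact permutation p = 0.064 and 0.0589, adjusted 0.312 and 0.622). Fgfr4 with Fgf2 had r = 0.71 (rho = 0.60) and Fgf18 with Dusp6 r = 0.66 (rho = 0.72). Over these 7 pairs the adjusted exact permutation p ran from 0.312 to 0.977 for r and from 0.622 to 0.9 for rho.

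**Figure D4:**
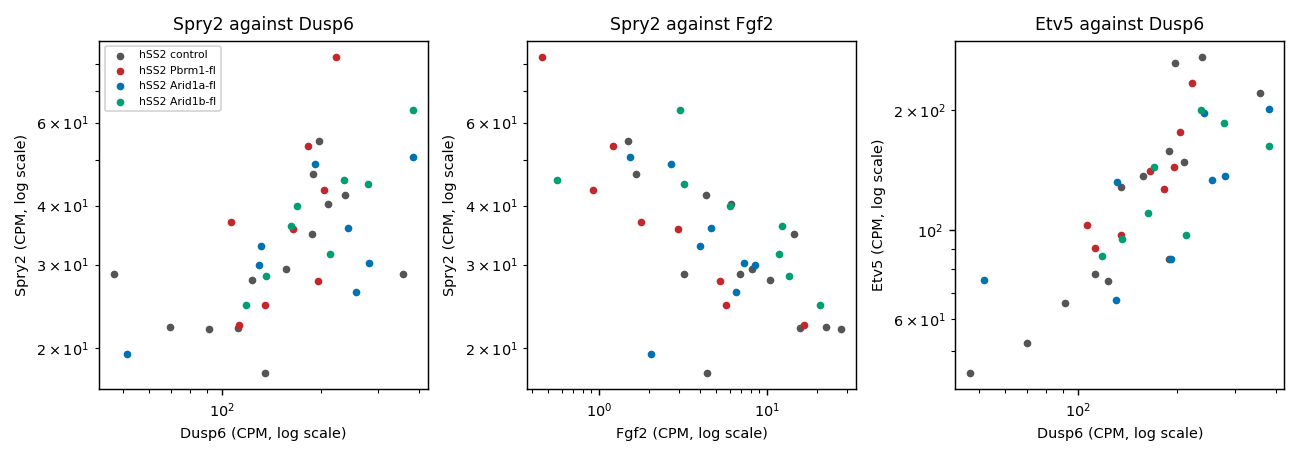
Levels in the 37 hSS2 tumours (points, coloured by group) on log axes in CPM: Spry2 against Dusp6, Spry2 against Fgf2, and Etv5 against Dusp6. The panels with Dusp6 rise (r = 0.61 for Spry2 with Dusp6, rho = 0.81 for Etv5 with Dusp6) and the panel with Fgf2 falls (r = -0.69).

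Fgf2 varied with markers of Schwann, fat, muscle, vessel wall and immune cells. Of 100 pairs of a member and a marker list score 42 passed, 20 positive and 22 negative. Fgf2 had r = 0.84 with the Schwann cell list (rho = 0.90), 0.80 with adipocyte (rho = 0.84), 0.75 with skeletal muscle (rho = 0.77), 0.73 with T cell (rho = 0.73), 0.71 with pericyte and smooth muscle (rho = 0.72) and 0.67 with macrophage (rho = 0.68). Permutation p was 1e-05 for each, with rho for macrophage at 2e-05, and adjusted over 100 pairs all were at most 0.000286. Without the 2 farthest tumours these r stayed between 0.59 and 0.84. Within the 13 control tumours they were 0.72 to 0.91, and for the 5 lists other than Schwann cell they were 0.40 to 0.86 within the mouse number ranges. With proliferation Fgf2 had r = -0.59 (rho = -0.61, permutation p = 0.00013 and 9e-05, adjusted 0.00117 and 0.000818, r = -0.60 without 2, and -0.70, -0.50 and -0.64 within the ranges). The 7 Schwann cell markers summed to 106 to 191 CPM in control, 88.4 to 216 in Pbrm1-fl, 87.1 to 161 in Arid1a-fl and 89.0 to 186 CPM in Arid1b-fl. Among them the defining factor Sox10 was at 0 in 4 tumours of each of these groups and reached at most 2.06 CPM, and Pmp22, also made by other cells, reached 164 CPM. Within the ranges in ascending order the Schwann cell relation had r = 0.81, 0.88 and 0.91. In the 9 hSS1 tumours none of the 100 pairs of a member and a list passed by the exact permutation test, 8 had an unadjusted p of r under 0.05, and 27 of the 42 that passed in hSS2 had the same sign. There Fgf2 had r = 0.54 with the Schwann cell list (rho = 0.43), 0.85 with pericyte and smooth muscle (rho = 0.57), 0.36 with skeletal muscle (rho = 0.12), 0.23 with adipocyte (rho = 0.43), -0.37 with macrophage (rho = -0.53) and -0.72 with T cell (rho = -0.30). Their exact permutation p adjusted over 100 pairs ran from 0.534 to 0.92 for r and from 0.822 to 0.92 for rho. What part these cells have in the Fgf2 level was not tested.

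Spry2, Fgfr2 and Fgfr3 had the opposite signs in the hSS2 tumours. With the Schwann cell list r was -0.67 for Spry2, -0.56 for Fgfr2 and -0.53 for Fgfr3 (rho = -0.75, -0.44 and -0.57, permutation p of r = 1e-05, 0.00035 and 0.00087, of rho = 1e-05, 0.00748 and 0.00042, adjusted p of r = 0.000143, 0.00219 and 0.00375 and of rho = 0.000167, 0.0197 and 0.00247). Without the 2 farthest tumours r was -0.65, -0.44 and -0.49. Within the ranges r was -0.54, -0.84 and -0.79 for Spry2, -0.34, -0.61 and -0.66 for Fgfr2, and -0.44, -0.18 and -0.76 for Fgfr3. With the same list r was positive in the 9 hSS1 tumours, at 0.04 for Spry2, 0.45 for Fgfr2 and 0.26 for Fgfr3. Their rho was 0.12, 0.78 and 0.25. None of these passed by the exact permutation test (adjusted p of r = 0.995, 0.768 and 0.936, of rho = 0.92, 0.822 and 0.92). Dusp6 rose with proliferation in hSS2 (r = 0.54, rho = 0.51, permutation p = 0.00062 and 0.00153, adjusted 0.0035 and 0.00567, r = 0.36 without 2), with r = 0.81 in the control tumours and 0.55, 0.64 and 0.51 within the ranges. That relation kept its sign in hSS1 without passing (r = 0.71, rho = 0.67, exact permutation p adjusted 0.577 and 0.822). Fgf18 and Spry4 passed with none of the 10 lists.

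**Figure D5:**
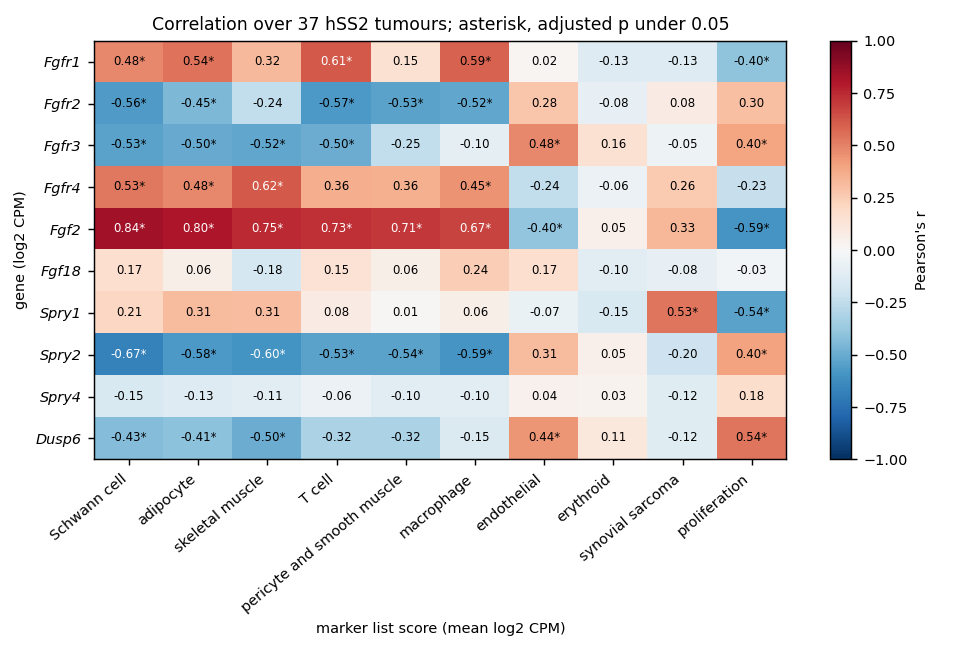
Pearson's r between the log2 CPM of each gene (rows) and the mean log2 CPM of 10 marker lists (columns) over 37 hSS2 tumours; an asterisk marks a permutation p adjusted over 100 pairs under 0.05. The Fgf2 row holds the highest value, 0.84 with the Schwann cell list, and the Fgf18 and Spry4 rows hold no asterisk.

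Around the 10 members, 4 lists of pathway genes were read in the same fits. In hSS2 Pbrm1-fl against control 7 of 79 tested genes passed, 3 higher and 4 lower, beside 7.35% of all genes. Of the 14 other FGF family genes tested, Fgf11, an intracellular FGF, rose (0.91 ± 0.22, edgeR adjusted p = 0.0098). It ran from 94.9 to 150 CPM in Pbrm1-fl and from 25.7 to 128 CPM in control, and it passed in all 21 fits that left out a library, but not against own-range controls (0.71, edgeR adjusted p = 0.24). The list median was -0.24, beside -0.00 for all genes.

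Among 25 tested co-receptor and heparan sulphate genes 1 rose and 3 fell (list median -0.10). Gpc4, a glypican that carries heparan sulphate at the cell surface, rose (1.11 ± 0.31, edgeR adjusted p = 0.022). Its levels were 82.5 to 797 CPM in Pbrm1-fl and 80.9 to 306 CPM in control, and the call was lost without Pbrm1-fl replicate 2 or 4 and against own-range controls (0.92, edgeR adjusted p = 0.34). The 6-O-sulphotransferase genes Hs6st2 (-2.13 ± 0.58, edgeR adjusted p = 0.020) and Hs6st1 (-0.96 ± 0.30, edgeR adjusted p = 0.046), whose products add the sulphate that FGF binding uses, both fell, as did the syndecan gene Sdc2 (-0.54 ± 0.15, edgeR adjusted p = 0.025). Hs6st2 passed in all 21 fits without 1 library and against control tumours of its own range (-3.27, edgeR adjusted p = 0.0016). Hs6st1 kept its call in 9 of those 21 fits, losing it without control replicate 1, 2, 3, 6, 7 or 11 or Pbrm1-fl replicate 2, 3, 4, 5, 7 or 8, and passed in the own-range comparison (-1.51, edgeR adjusted p = 0.019). Sdc2 lost it without Pbrm1-fl replicate 3 or 4 and against own-range controls (-0.42, edgeR adjusted p = 0.33).

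Of 23 adaptor and cascade genes, Gab1, a docking adaptor of receptor tyrosine kinases, rose (1.24 ± 0.38, edgeR adjusted p = 0.037). It rests on Pbrm1-fl replicates 3 and 7, at 1132 and 342 CPM, while the other 6 tumours had 73.2 to 120 CPM and the controls 70.2 to 193 CPM. Leaving out 1 library took the Gab1 difference as low as 0.26, and the call was kept in 12 of 21 fits; those that lost it lacked Pbrm1-fl replicate 3 or 7 or control replicate 2, 3, 6, 7, 9, 11 or 12. Gab1 passed in 1 of the 6 alternative settings tried and not against own-range controls (1.37, edgeR adjusted p = 0.24). Rasa1, which switches RAS off, fell slightly (-0.23 ± 0.06, edgeR adjusted p = 0.021). Its call was kept in 21 of 21 fits without 1 library but not against own-range controls (-0.19, edgeR adjusted p = 0.30). None of 17 other ERK feedback and target genes passed, Etv5 among them at 90.5 to 234 CPM in Pbrm1-fl and 44.1 to 272 CPM in control. Own-range controls gave 4 of the 79 genes, beside 2.38% of all genes: Hs6st1, Hs6st2, and, named after their values were seen, the receptor-like gene Fgfrl1 (-0.99, edgeR adjusted p = 0.029) and the feedback gene Il17rd (-1.63, edgeR adjusted p = 0.031).

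In Arid1a-fl against control 1 of 79 pathway genes passed, beside 3.17% of all genes. Myc, an immediate target of growth factor signalling, rose (1.54 ± 0.41, edgeR adjusted p = 0.038). Replicates 1 and 5 held 153 and 74.2 CPM, and the other 6 tumours had 9.37 to 17.3 CPM, within the 6.45 to 21.2 CPM of the controls. The difference fell to as little as 0.71 without 1 library, and the call was lost without Arid1a-fl replicate 1, 5 or 8 or control replicate 7, 9 or 12. Myc did not pass against own-range controls (1.44, edgeR adjusted p = 0.11). The 4 genes that passed there, beside 7.0% of all genes and named after their values were seen, were Braf (-0.65, edgeR adjusted p = 0.0048), Frs2 (-0.37, edgeR adjusted p = 0.041) and Dusp1 (-1.53, edgeR adjusted p = 0.026) lower and Fgf9 (0.95, edgeR adjusted p = 0.048) higher. In Arid1b-fl none passed by edgeR or DESeq2 (7 of 79 at an unadjusted p under 0.05, beside 1250 of 20083 genes). In hSS1 Pbrm1-fl none of 74 passed by edgeR, 18 had an unadjusted p under 0.05 (beside 3059 of 17786 genes) and DESeq2 called 7, beside 6.72% of all genes. In the interaction 1 of 80 passed, beside 2.86% of all genes: Phlda1, which ERK signalling induces (-3.84 ± 0.89, edgeR adjusted p = 0.015). It ran from 128 to 455 CPM in hSS1 control, 14.5 to 67.8 in hSS1 Pbrm1-fl, 14.4 to 119 in hSS2 control and 22.9 to 295 CPM in hSS2 Pbrm1-fl. The interaction kept its call without any 1 hSS1 library, and it was -3.84 with an edgeR adjusted p of 0.12 against own-range controls.

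Pbrm1-fl against Arid1a-fl gave 12 of 79 pathway genes, 7 higher and 5 lower, beside 12.3% of all genes. The heparan sulphate and co-receptor genes were Gpc4 (1.63), Sdc4 (2.04) and Kl (2.02) higher and Gpc5 (-3.52) and Sdc2 (-0.55) lower, with edgeR adjusted p from 0.0026 to 0.041. The FGF family genes were Fgf11 (0.85, edgeR adjusted p = 0.025) higher and Fgf10 (-1.13, edgeR adjusted p = 0.045) lower. Frs3, Gab1 and Map2k2 were higher, and Rasa1 and Myc lower. Against own-range controls none of these 12 passed, and the lowest edgeR adjusted p among them was 0.086, for Sdc4 (2.79). Braf (0.86, edgeR adjusted p = 0.019) and Fgf15 (-8.91 ± 2.33, edgeR adjusted p = 0.039) passed there, beside 2.17% of all genes, and were named after their values were seen. Fgf15 ran from 0 to 32.6 CPM in hSS2 control and from 0.0604 to 5.79 CPM in Pbrm1-fl. In Arid1a-fl its lowest level was 0 and its mean 15.8 ± 21.5 CPM (SD), so its fitted difference includes tumours at the floor. Pbrm1-fl against Arid1b-fl gave Gpc4 (1.33, edgeR adjusted p = 0.023) and Gpc5 (-2.91, edgeR adjusted p = 0.049), beside 4.37% of all genes. Against own-range controls neither passed (0.82 and -2.40, edgeR adjusted p = 0.72 and 0.62). Arid1a-fl against Arid1b-fl gave none by edgeR or DESeq2 (6 at an unadjusted p under 0.05, beside 2517 of 20083 genes).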

How the data were processed

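RNA was sequenced from 46 mouse tumours, 1 library each, in rRNA-depleted strand-specific libraries. The authors deposited raw counts per gene in 2 tables, 37 hSS2 and 9 hSS1 tumours. Per the submitters' processing notes, the tools named were STAR 2.7.11 and featureCounts 1.6.3 with mm10; the annotation release, the strand setting and the treatment of multimapping reads are not given in the sources used here. The 10 genes, the 4 pathway lists and the 10 marker lists were chosen with earlier results of these data known.

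Deposited counts were tested within each table in edgeR 4.0.16 (R 4.3.3) with filterByExpr, TMM scaling and the robust quasi-likelihood test, adjusted by Benjamini-Hochberg over all genes tested at 0.05; the interaction was fitted on both tables. The SE is the log2 fold change divided by the root of F. Levels are CPM on joint TMM scaling, and length is union exon length of GENCODE M21. Correlations used log2 CPM with a prior count of 2. Outside the members, pathway genes named are those past the threshold, plus readouts and the genes most alike by rho. Alternatives were another scaling, no filter, DESeq2 1.42.0, own-range controls, a muscle covariate, the 2 groups alone and leaving out each library. The main edgeR fit, for Pbrm1-fl against control in each table, and the correlation code were tested on simulated data. P-values measure the spread between tumours, each from its own mouse. Among 178 pairs of libraries within a group the lowest chi-square per degree of freedom was 18.6, so none were counted as duplicates.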

Additional observations from a re-analysis of the deposited data

Results flagged for a closer look

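Among 50 sets of 1 member in 1 genotype group, 5 held a library far above the rest by Dixon's test on CPM. For normally distributed values chance flags about 1 of 20 sets, and CPM on a linear scale need not be so distributed. The group of 13 hSS2 control tumours was too large for the critical values used and was not screened. Fgfr3 was at 178 CPM in Arid1b-fl replicate 2, where the next tumour had 80.7 CPM, and at 204 CPM in hSS1 control replicate 4, where the next had 113 CPM. Fgfr4 was at 13.5 CPM in hSS1 control replicate 2, where the next had 1.02 CPM. Fgf2 was at 16.6 CPM in hSS2 Pbrm1-fl replicate 1, where the next had 5.69 CPM, and Spry4 at 60.2 CPM in hSS1 control replicate 5, where the next had 42.6 CPM. Among 80 pathway genes tested, 1 passed in the interaction, beside 2.86% of all genes: Phlda1, at -3.84 ± 0.89 log2 units (edgeR adjusted p = 0.015). It did not pass against own-range controls (edgeR adjusted p = 0.12, with 0.0414% of genes called).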

How the results depend on the processing

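Mouse number range and genotype cannot be told apart across the fl groups, depth limits Fgfr4, and groups of 4 and 5 tumours limit hSS1. No paired analysis was possible because the labels number each mouse once, name no litters and give no replicate numbers that groups share. In Pbrm1-fl members called were 1, and 0 with no filter, own-range controls or the 2 groups alone, 2 by DESeq2 and 0 to 1 leaving out 1 library; all genes called were 1476, and 1231 with no filter, 477 with own-range controls, 1009 in the 2 groups alone and 2164 by DESeq2. In Arid1a-fl genes called were 637, and 243 with no filter, 1696 by DESeq2, 1405 with own-range controls, 159 in the 2 groups alone, and 56 (without Arid1a-fl replicate 8) to 1416 (without replicate 6); members called were 0, and 1 by DESeq2 or own-range controls and 0 to 1 leaving out 1 library. With own-range controls and without control replicate 9, chosen after seeing the data, Arid1a-fl gave 1232 genes and 1 member, and Fgf18 was 0.58. In Arid1b-fl genes called were 11, and 27 with no filter, 0 with own-range controls, 6 with the muscle covariate, 3 in the 2 groups alone, and 6 (without Arid1b-fl replicate 5) to 15. In hSS1 they were 1, and 1184 by DESeq2, 0 with own-range controls and 0 to 4 leaving out 1 library. In the interaction they were 622, and 402 with no filter, 1195 by DESeq2, 9 with own-range controls, and 235 (without hSS1 control replicate 3) to 847 (without hSS1 control replicate 4). Pbrm1-fl against Arid1a-fl gave 0 members with own-range controls, and against Arid1b-fl 1 by DESeq2. Member pairs passing were 1 in control tumours, and 0, 5 and 2 within the ranges in ascending order, and member-marker pairs 17, 2, 19 and 16; Spearman rho, chosen after seeing the data, gave 8 and 44. The 1 called result that changed sign was proliferation with Spry1 (r = -0.54, and 0.040 in mice numbered 2000 and over). Uncalled differences changed sign as follows. With own-range controls Pbrm1-fl had Fgfr2 -0.019, Fgfr3 -0.40, Fgf18 -0.60 and Dusp6 -0.42, Arid1a-fl had Fgf18 0.19, Arid1b-fl had Fgfr1 -0.44, Fgfr3 0.23 and Fgf18 0.024, hSS1 had Fgfr4 0.82, and the interaction had Fgfr4 1.51 and Spry1 -0.44. With the muscle covariate Pbrm1-fl had Fgf18 -0.017 and Dusp6 -0.10, Arid1a-fl had Fgfr3 -0.14 and Spry2 -0.076, Arid1b-fl had Fgf2 0.0056, and hSS1 had Fgfr4 0.33 and Spry2 0.034. Fgfr1 in Arid1b-fl was -0.012 by the other scaling and DESeq2, and -0.0081 in the 2 groups alone. Leaving out 1 library, ranges crossing 0 were in Pbrm1-fl Fgfr3 -0.092 to 0.36, Fgf18 -0.11 to 0.12 and Dusp6 -0.056 to 0.17, in Arid1a-fl Fgfr3 -0.22 to 0.17 and Spry2 -0.0086 to 0.18, in Arid1b-fl Fgfr1 -0.17 to 0.16, Fgfr2 -0.12 to 0.15 and Fgf2 -0.45 to 0.11, in hSS1 Fgfr1 -0.47 to 0.015, Fgfr4 -1.82 to 0.90, Spry2 -0.15 to 0.018 and Spry4 -0.10 to 0.10, and in the interaction Fgfr4 -0.94 to 1.79 and Spry1 -0.27 to 0.39. The cause was not tested.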
